A study of Rattus norvegicus with 26 samples.

Results

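The question was whether liver transcripts responded differently to a 10-day than to a 4-day feed restriction in rats. For every gene the 10-day effect (10-day restricted minus 10-day control rats) was set against the 4-day effect (4-day restricted minus 4-day control rats), and the first minus the second is called the difference below. All liver arrays entered by their labels and no measured value chose them: 18 of the 26 arrays of the series, from 5 restricted and 5 control rats of the 10-day set and 4 restricted and 4 control rats of the 4-day set. Each array was of 1 rat. All rats were inbred male Long-Evans (Turku/AB), 11 to 15 weeks old at the start, kept in 12 h of light and 12 h of dark, and each was given 4 mL/kg of corn oil on day 0. The 10-day restricted rats had unlimited feed on day 0 and then 16 g, 14 g, 11 g and 8 g on days 1 to 4, 6 g on day 5, 4 g on days 6 and 7, 2 g on day 8 and 1 g on day 9. The 4-day restricted rats had 18, 12, 9 and 6 g. Each portion was given at once in the light hours, while control rats ate without limit. Feed was powdered in the 10-day set and pelleted in the 4-day set. The regimens thus differed in length, in the last portion (1 g against 6 g) and in the form of the feed. Each was also a set of its own, pre-processed separately. Length, last portion, form of the feed and set cannot be told apart. The time of day at which livers were taken is not given in the labels used here.

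In a liver that receives little food, insulin falls and glucagon and glucocorticoids rise. Enzymes that make fat are switched off, enzymes that burn fat and make glucose are switched on, and the hepatic clock follows the time at which food arrives. In that clock Bmal1 with its partners Clock and Npas2 drives the genes of its own repressors (Per, Cry and Rev-erb) and of output genes such as Dbp and Usp2. Glucocorticoids act on Per1, Fkbp5 and Tsc22d3 through the glucocorticoid receptor.

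The arrays held 31042 probe sets for rat transcripts, and 14217 genes are each shown by 1 of them. Values are log2 expression, on which a change of 1 is a 2-fold change. The authors pre-processed each liver set by itself, so effects are taken within a set, and levels of the sets are given side by side with no test. Array medians lay between 3.23 and 3.32 in the 10-day set and between 3.16 and 3.25 in the 4-day set, and a group mean under its set's median is called near background. The lowest correlation between any pair of arrays was 0.983 in the 10-day set and 0.990 in the 4-day set. The summed level of 11 hepatocyte markers ranged from 18.38 to 18.46 in 10-day restricted, 18.36 to 18.40 in 10-day control, 18.30 to 18.45 in 4-day restricted and 18.38 to 18.44 in 4-day control arrays. Actin probe sets of the 3′ and 5′ ends, a sign of RNA integrity, differed by 2.00 to 2.12, 1.91 to 2.07, 2.05 to 2.15 and 2.06 to 2.07 in the same groups. The number of arrays limits the precision: the standard error (SE) of the difference had a median of 0.138 over the 7077 genes with a mean of at least 5.

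Among called genes, the 4 largest positive differences were those of Usp2, Zfp354a, Cyp17a1 and Akr1b7, at 5.96, 5.81, 4.45 and 4.09, and the largest negative ones were those of Stac3 and Lox, at -5.22 and -3.75. Cyp17a1 and Akr1b7 have groups near background, described below, that leave the size of their difference uncertain. That of Usp2 is uncertain too, with 10-day controls close to the array median and a second probe set at 2.92. In all, 137 of 14217 genes (0.964%) had a difference past an adjusted p of 0.05 (limma, Benjamini-Hochberg), with 79 above 0 (0.556%) and 58 below 0 (0.408%). Of them 61 were of a size of at least 1, and the median size was 0.92. Without adjustment 1661 genes had a p below 0.05. By contrast, 2393 genes (16.8%) changed after 10 days, 1235 up (8.69%) and 1158 down (8.15%), and 1209 (8.5%) changed after 4 days, 647 up (4.55%) and 562 down (3.95%). Counts of called genes in the lists below are to be read beside these shares over all genes. Over probe sets, called differences were 0.654% of all (0.377% above and 0.277% below 0), 10-day effects 11.2% (5.82% up and 5.36% down) and 4-day effects 5.58% (2.94% up and 2.64% down).

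Most of what both regimens changed went the same way. Of 872 genes called under both (36.4% of those called after 10 days and 72.1% of those called after 4 days), 869 had the same sign, and 849 of these had no called difference. The median ratio of the 10-day to the 4-day size in the 869 genes was 1.08, and 506 were larger after 10 days. Across all 14217 genes, which are not independent replicates, the effects had a Pearson r of 0.703. A call in 1 regimen alone was seldom a called difference: this held for 90 of the 1521 genes called only after 10 days and for 18 of the 337 called only after 4 days. Of the other called differences, 20 were genes called under both with the same sign (7 larger after 10 days and 13 larger after 4 days), 3 had opposite signs, and 6 were called under neither.

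**Figure D1:**
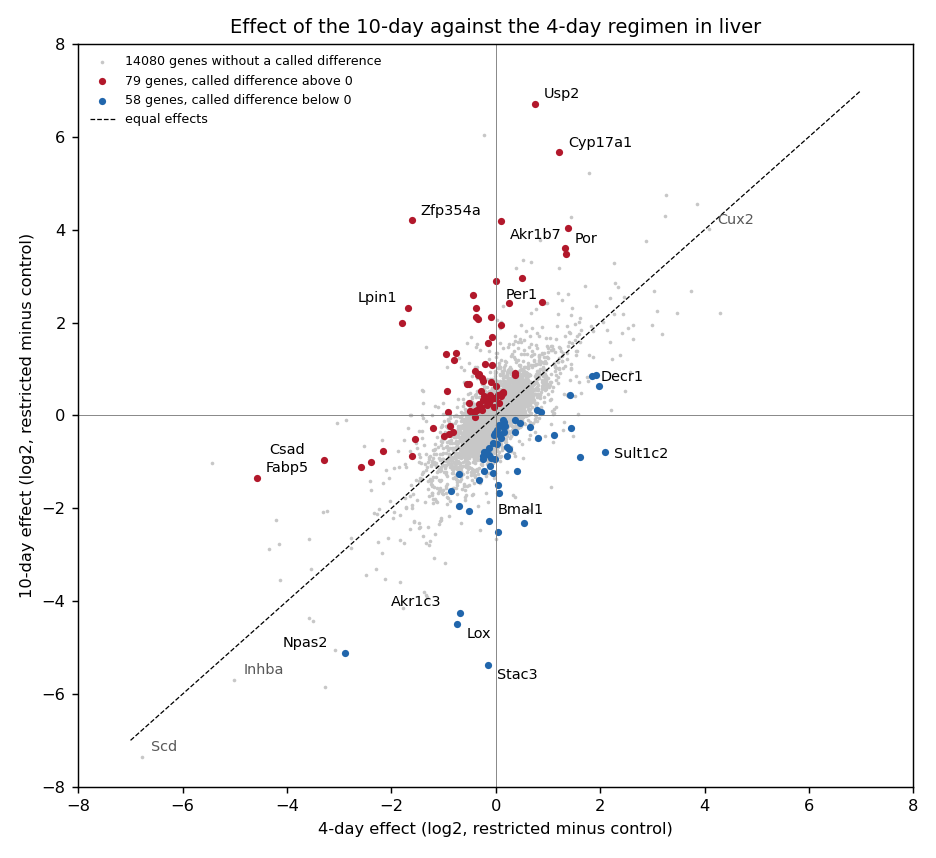
Each point is a gene, with its 10-day effect (vertical axis) against its 4-day effect (horizontal axis), both in log2 of restricted minus control rats. The 79 genes with a called difference above 0 (red) lie above the dashed line of equal effects and the 58 below 0 (blue) under it. Scd, Inhba and Cux2, named in grey, changed by several log2 units under both regimens and lie close to the line.

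All 137 called differences kept their sign in each of the 18 fits that left out 1 array. They were called on these same arrays, so a kept sign is not separate evidence. Of the 137, 61 stayed past the threshold in every fit. For a gene that did not, the number of the 18 fits that called it follows its values. Scanning of the 10-day arrays took 2 days, with restricted and control rats on both. All 137 differences had the same sign with the 10-day arrays of either day alone, beside all 4-day arrays. The genes were called on these arrays, so this is not separate evidence either. Of the 137, 10 stayed called with scan day 1 alone and 67 with scan day 2 alone, which hold fewer arrays. With scan day 1 alone 7 of the 137 sizes moved by over 1.5 times, all towards 0, and with scan day 2 alone 0 did. The 7 were Stac3 (-3.29 with scan day 1 and -6.55 with scan day 2), Akr1b7 (2.65 and 5.05), Haao (0.28 and 0.60), Tent4a (0.99 and 2.00), Syvn1 (-0.39 and -0.85), Clu (-0.27 and -0.56) and Mfsd14b (-0.25 and -0.51), the last 4 of which are named after their values were seen. Lpin1 had 2.76 and 5.06, and Pdk2 0.40 and 0.76.

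The circadian clock held several of the largest differences. In these, the regimen, the set and the time of day at which livers were taken cannot be told apart. Among 8 clock output genes 2 were called above 0 and 0 below, with a median difference of 1.85 against -0.01 over all genes. Among 9 repressors 2 were called above 0 and 0 below (median 0.51), and among 5 activators 0 above and 2 below (median -0.78). After 10 days 7 of the 8 output genes and 5 of the 9 repressors rose and 3 of the 5 activators fell, against 2, 1 and 2 after 4 days. Over all genes, too, more were called after 10 days (8.69% up and 8.15% down) than after 4 days (4.55% up and 3.95% down).

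RefSeq promoters (GRCr8) were found for 19 of the 22 measured clock genes. In the 250 bases before the start, on either strand, an E-box (CACGTG), which Bmal1 and its partners bind, lay in 4 of the 19 (Bhlhe40, Bhlhe41, Nr1d1 and Tef), against 5.59% of 33469 promoters. A D-box (TTATGTAA or TTACGTAA), the site of Dbp and its relatives, lay only in Per2 among the 19 (0.932% of all promoters). A ROR element (GTAGGTCA), the site of the ROR activators and the Rev-erb repressors, lay only in Bmal1 (0.508%), and a cAMP response element (TGACGTCA) in 0 of the 19 (1.59%). The 2 promoters below are shown because Per2 and Bmal1 moved in opposite directions after 10 days, and capitals mark the D-box 192 bases and the ROR element 17 bases before the start. Such a match is a description of the letters, not a site in use. Only the exact letters given were searched, so other forms of these elements are neither counted nor marked.
Per2, chr9:99496994-99497243, minus strand: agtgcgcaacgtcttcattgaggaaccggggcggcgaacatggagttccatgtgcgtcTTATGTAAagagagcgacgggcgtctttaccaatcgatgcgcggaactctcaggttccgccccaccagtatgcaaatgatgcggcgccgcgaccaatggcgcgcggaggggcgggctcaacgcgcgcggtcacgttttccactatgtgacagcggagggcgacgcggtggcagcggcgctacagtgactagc
Bmal1, chr1:176766078-176766327, plus strand: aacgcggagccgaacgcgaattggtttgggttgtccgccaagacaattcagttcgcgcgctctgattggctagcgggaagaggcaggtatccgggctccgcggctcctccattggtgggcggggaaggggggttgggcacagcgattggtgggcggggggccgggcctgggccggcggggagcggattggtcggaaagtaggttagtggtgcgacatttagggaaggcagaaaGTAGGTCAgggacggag

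Bmal1, the core activator, measured 5.37, 5.39, 5.34, 4.44 and 5.28 in 10-day restricted livers and 7.95, 7.56, 6.86, 6.99 and 7.83 in 10-day control livers. In 4-day restricted livers it measured 2.61, 2.62, 2.63 and 2.64, and in 4-day control livers 3.09, 2.63, 2.68 and 2.63. The 10-day groups did not overlap, while both 4-day groups were near background, so that the 4-day effect has no measured size. The 10-day effect was -2.27 (SE 0.27, adjusted p = 0.000729), the 4-day effect -0.13 (SE 0.10, adjusted p = 0.801) and the difference -2.14 (SE 0.32, adjusted p = 0.00789). Control levels of Bmal1 themselves lay 4.68 apart, at 7.44 ± 0.49 in the 10-day set (SD, n = 5) and 2.76 ± 0.22 in the 4-day set (SD, n = 4).

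Npas2, which can take the place of Clock beside Bmal1, was near background in both restricted groups, at 2.39 ± 0.05 after 10 days (SD, n = 5) and 2.42 ± 0.04 after 4 days (SD, n = 4). Its controls measured 7.51 ± 0.27 in the 10-day set (SD, n = 5) and 5.32 ± 1.06 in the 4-day set (SD, n = 4). It fell under both regimens (-5.12, SE 0.12, and -2.90, SE 0.48), and both sizes are lower bounds. The difference of -2.22 (SE 0.47, adjusted p = 0.0445, 3 of 18 fits) is nearly the same as the 2.19 between the control levels. Clock fell by similar amounts under both (-0.90 and -0.83), and had a difference of -0.06 (95% interval -0.49 to 0.36).

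Usp2, a deubiquitinating enzyme with a strong daily rhythm, measured 9.39, 9.87, 10.30, 9.92 and 10.74 in 10-day restricted livers and 3.28, 3.29, 3.30, 3.53 and 3.24 in 10-day control livers. In 4-day restricted livers it measured 8.96, 8.92, 8.70 and 9.66, and in 4-day control livers 6.48, 9.33, 8.49 and 8.92. Only the 10-day controls were low, close to the array median, and the 4-day groups overlapped. The 10-day effect was 6.71 (SE 0.22, adjusted p = 1.9e-06), the 4-day effect 0.75 (SE 0.60, adjusted p = 0.831) and the difference 5.96 (SE 0.62, adjusted p = 0.000548). A second probe set of Usp2 gave a called difference of 2.92. From the 4-day to the 10-day set the restricted mean shifted by 0.99 and the control mean by -4.98.

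Per1, a clock repressor that glucocorticoids also induce, measured 6.33, 6.17, 7.23, 7.42 and 8.16 in 10-day restricted livers and 4.40, 4.14, 3.76, 4.18 and 4.34 in 10-day control livers. The 4-day groups overlapped, at 6.27, 6.47, 5.99 and 6.66 in restricted and 6.17, 6.79, 6.19 and 6.22 in control livers. Per1 rose after 10 days (2.90, SE 0.36, adjusted p = 0.000957), its 4-day effect was 0.01 (SE 0.19), and the difference was 2.89 (SE 0.45, adjusted p = 0.0097). As with Usp2, the 10-day controls were the group apart.

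Per2, the repressor shown above, rose under both regimens, by 3.48 (SE 0.30) after 10 days and 1.35 (SE 0.30) after 4 days, and the difference was 2.12 (SE 0.45, adjusted p = 0.0437, 4 of 18 fits). It averaged 9.44 ± 0.50 in 10-day restricted and 5.97 ± 0.51 in 10-day control livers (SD, n = 5 each), and 9.05 ± 0.30 in 4-day restricted and 7.69 ± 0.59 in 4-day control livers (SD, n = 4 each). A second probe set of Per2, with a low mean of 3.05, had a difference of 0.01 that was not called. Por, the reductase that passes electrons to all microsomal cytochromes P450, had a difference of 2.27 (SE 0.42, adjusted p = 0.0224, 13 of 18 fits). Its groups averaged 12.96 ± 0.54, 9.36 ± 0.08, 12.03 ± 0.34 and 10.70 ± 0.70 in 10-day restricted, 10-day control, 4-day restricted and 4-day control livers. In all 3 genes Usp2, Per2 and Por the restricted means of the sets lay within 1 log2 unit of each other, and the control means lay further apart.

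Other clock genes, named like Clock after their values were seen, had large differences that missed the threshold. Noct, a rhythmic phosphatase, had one of 6.28 (95% interval 2.99 to 9.56, adjusted p = 0.0884) with SDs of 1.83, 0.41, 2.16 and 2.00 in 10-day restricted, 10-day control, 4-day restricted and 4-day control livers. Dbp, an output transcription factor, had one of 2.83 (95% interval 1.17 to 4.48, adjusted p = 0.139). Nfil3, which opposes Dbp at the D-box, had a difference of -2.07 (adjusted p = 0.0903), with a 10-day effect of 0.13 and a rise of 2.20 after 4 days.

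**Figure D2:**
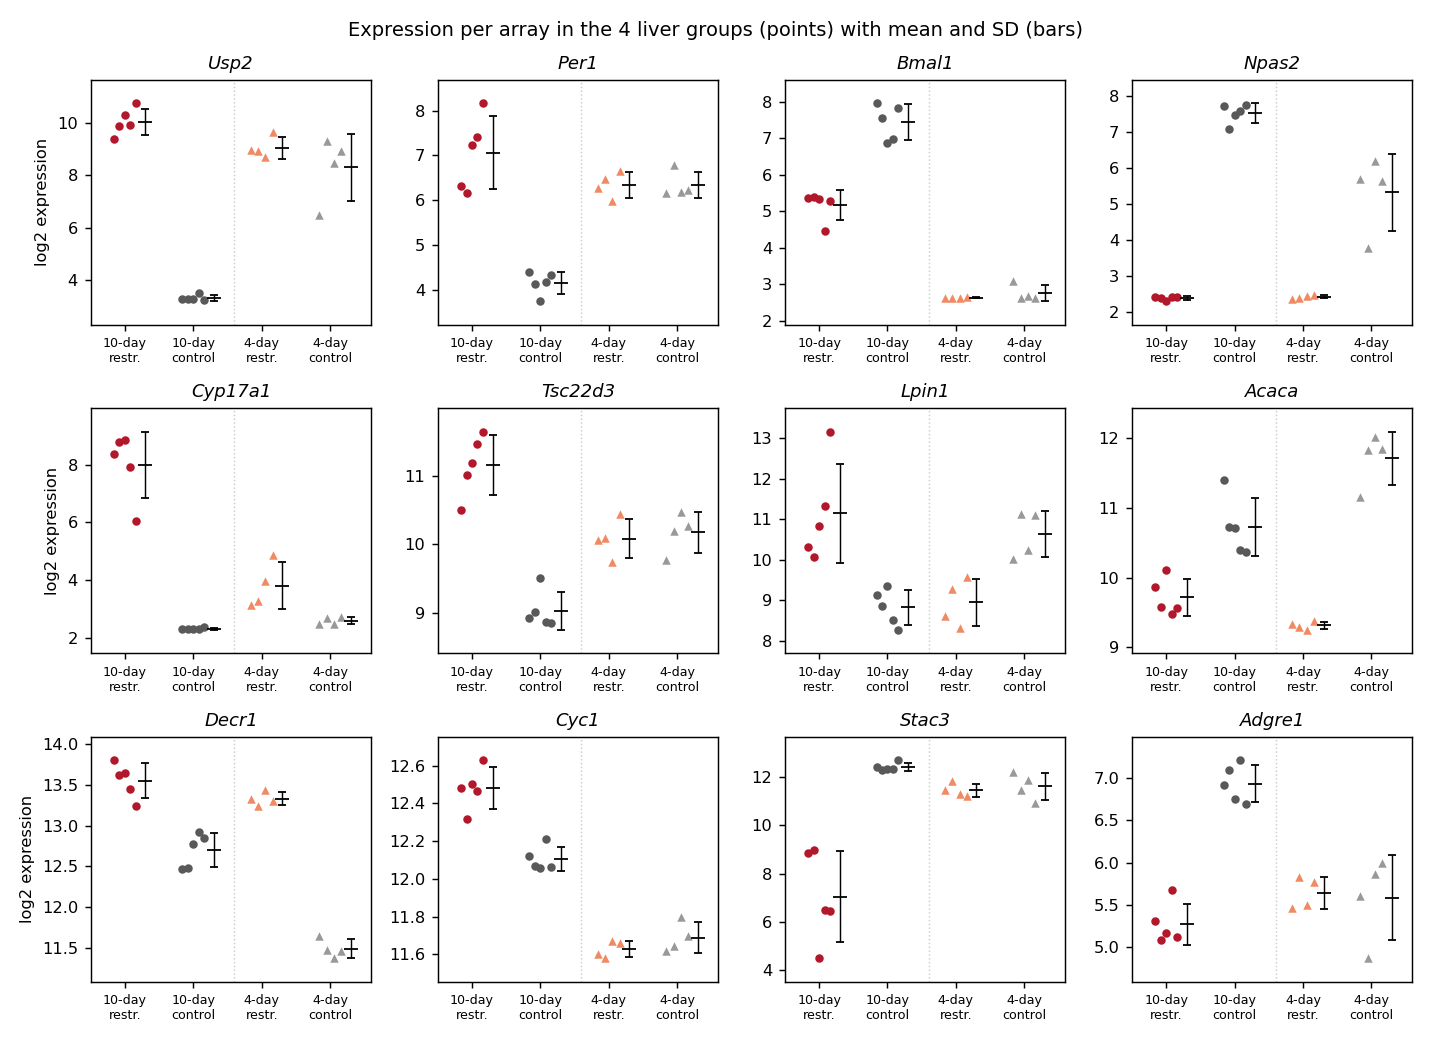
Log2 expression of 12 genes in each liver array (points), with the group mean and SD (bars), for 10-day restricted (n = 5), 10-day control (n = 5), 4-day restricted (n = 4) and 4-day control (n = 4) rats. In Usp2 and Per1 the 10-day controls are the low group, in Cyp17a1 and Stac3 the 10-day restricted rats stand apart, and in Lpin1 the effects have opposite signs.

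Of 16 glucocorticoid-responsive genes 3 had a called difference above 0 and 1 below 0 (median 0.86); Per1 is 1 of the 3. Tsc22d3, a leucine zipper protein that mediates anti-inflammatory glucocorticoid action, measured 10.49, 11.01, 11.18, 11.46 and 11.64 in 10-day restricted livers and 8.92, 9.01, 9.51, 8.86 and 8.86 in 10-day control livers. In 4-day restricted livers it measured 10.05, 10.09, 9.74 and 10.44, and in 4-day control livers 9.76, 10.20, 10.46 and 10.27. It rose after 10 days (2.12, SE 0.22, adjusted p = 0.000386), its 4-day effect was -0.09 (SE 0.19), and the difference was 2.22 (SE 0.31, adjusted p = 0.00516). The 4-day groups overlapped between the levels of the 10-day groups.

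Fkbp5, a co-chaperone of the glucocorticoid receptor, averaged 7.41 ± 1.03 in 10-day restricted and 4.82 ± 0.06 in 10-day control livers (SD, n = 5 each). The 4-day groups overlapped, at 6.07 ± 0.36 in restricted and 6.51 ± 0.70 in control livers (SD, n = 4 each). The difference was 3.03 (SE 0.60, adjusted p = 0.0339, 6 of 18 fits). Mt2A, a metal-binding protein that glucocorticoids and zinc induce, went the other way, with a difference of -1.73 (SE 0.37, adjusted p = 0.0447, 3 of 18 fits). Its control means were 12.73 ± 0.15 in the 10-day set and 11.38 ± 0.71 in the 4-day set. It had effects of -0.28 after 10 days and 1.45 after 4 days, neither past the threshold. Tat, the tyrosine aminotransferase often used as a marker of glucocorticoid action, had a difference of 1.82 (95% interval 0.73 to 2.90) that missed it (adjusted p = 0.150). Its control means were 11.33 ± 0.37 in the 10-day set and 12.07 ± 0.39 in the 4-day set.

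Steroid-converting enzymes held 3 large differences in both directions (2 above and 1 below 0 among 10 measured, median -0.05). Cyp17a1, the hydroxylase and lyase that leads to androgens, measured 8.36, 8.79, 8.84, 7.90 and 6.06 in 10-day restricted livers and between 2.30 and 2.37 in all 5 10-day control livers. It measured 3.14, 3.27, 3.97 and 4.88 in 4-day restricted livers, and 2.50, 2.70, 2.48 and 2.73 in 4-day control livers. Neither pair of groups overlapped and both control groups were near background. The 10-day effect was 5.67 (SE 0.48, adjusted p = 0.00016), the 4-day effect 1.21 (SE 0.37, adjusted p = 0.133) and the difference 4.45 (SE 0.66, adjusted p = 0.00655). With controls near background both effects are lower bounds, so the difference has no exact size. The restricted means of the sets lay 4.17 apart.

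Akr1b7, an aldo-keto reductase that detoxifies aldehydes of lipid and steroid metabolism, measured 5.44, 6.93, 9.61, 7.54 and 8.67 in 10-day restricted livers and between 3.30 and 3.65 in 10-day control livers. Both 4-day groups were near background, at 3.13 ± 0.04 in restricted and 3.03 ± 0.16 in control livers (SD, n = 4 each). The difference was 4.09 (SE 0.79, adjusted p = 0.0281, 10 of 18 fits), and its 4-day part has no measured size. Akr1c3, a ketosteroid reductase, fell after 10 days to 3.55 ± 0.65, against 7.80 ± 0.66 in 10-day controls (SD, n = 5 each), an effect of -4.26 (SE 0.39). Its 4-day groups averaged 6.78 ± 0.23 in restricted and 7.47 ± 0.35 in control livers (SD, n = 4 each), and its difference was -3.57 (SE 0.48, adjusted p = 0.00425). Other members of the Akr1c family, named here after their values were seen, also had negative differences: Akr1c1 -1.55 (6 of 18 fits), AKR1C3l1 -0.97 (7 of 18 fits) and Akr1c13 -0.92. Such close relatives can share probe matches, so these are not separate evidence. Control means of Akr1c1 were 10.82 ± 0.32 in the 10-day set and 9.76 ± 0.47 in the 4-day set.

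Cyp2c12, a cytochrome P450 that female rats express far more than males, measured 12.77, 12.51, 12.84, 12.72 and 13.18 in 10-day restricted livers and 10.95, 11.15, 11.28, 11.82 and 12.05 in 10-day control livers. It measured 10.67, 10.75, 10.76 and 11.43 in 4-day restricted livers and 11.96, 12.21, 11.26 and 11.25 in 4-day control livers. It rose after 10 days (1.35, SE 0.22, adjusted p = 0.00403), the 4-day effect was -0.77 (SE 0.28, adjusted p = 0.218), and the difference was 2.12 (SE 0.36, adjusted p = 0.0167). The other 7 female-biased genes had no called difference. Of these Cux2, a transcription factor of the female liver, and Prlr, the prolactin receptor, rose under both regimens. Of the 9 male-biased genes 4 fell after 10 days and 2 after 4 days, and none had a called difference (median -0.42). The largest differences among them were -1.59 for Car3 (adjusted p = 0.430) and -1.26 for Mup5 (adjusted p = 0.641).

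In fat synthesis the 10-day fall was the smaller one wherever a difference was called. Of 19 measured genes 15 fell after 4 days and 12 after 10 days, where 1 rose, and 15 of the 19 differences were above 0 (median 0.48), 2 of them called and 0 below. Acaca, which makes the malonyl-CoA for fatty acid synthesis, measured 9.86, 9.57, 10.11, 9.48 and 9.56 in 10-day restricted livers and 11.41, 10.72, 10.71, 10.40 and 10.37 in 10-day control livers. In 4-day restricted livers it measured 9.33, 9.30, 9.25 and 9.37, and in 4-day control livers 11.16, 11.84, 12.02 and 11.84. Its effects were -1.01 (SE 0.21) after 10 days and -2.40 (SE 0.17) after 4 days, a difference of 1.39 (SE 0.29, adjusted p = 0.0412, 2 of 18 fits). Neither pair of groups overlapped. From the 4-day to the 10-day set the restricted mean shifted by 0.40 and the control mean by -0.99.

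Pgd, an NADPH-producing enzyme of the pentose phosphate pathway, fell under both, with effects of -1.11 (SE 0.14) after 10 days and -2.59 (SE 0.26) after 4 days, a difference of 1.48 (SE 0.29, adjusted p = 0.0325, 7 of 18 fits). Its control means were 10.34 ± 0.27 in the 10-day set (SD, n = 5) and 10.94 ± 0.54 in the 4-day set (SD, n = 4). The pathway enzymes Tkt and Taldo1, named after their values were seen, had called differences of 0.74 (2 of 18 fits) and 0.50. Fabp5, a fatty acid carrier outside the list, fell under both, with effects of -1.34 (SE 0.25) after 10 days and -4.58 (SE 0.57) after 4 days, a difference of 3.24 (SE 0.60, adjusted p = 0.0216, 17 of 18 fits). Its control means were 9.14 ± 0.30 and 10.54 ± 0.57 in the 10-day and the 4-day set.

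Scd, the desaturase that makes oleate, fell most of the list under both regimens. It averaged 5.80 ± 1.34 in 10-day restricted and 13.15 ± 0.72 in 10-day control livers (SD, n = 5 each), and 7.71 ± 0.61 in 4-day restricted and 14.50 ± 0.22 in 4-day control livers (SD, n = 4 each). Its difference of -0.56 had a 95% interval of -2.25 to 1.12, which leaves a difference of over 2-fold in either direction possible. Pnpla3, a lipid droplet protein named after its values were seen, had a difference of 4.42 (95% interval 2.08 to 6.76) that missed the threshold (adjusted p = 0.0930), with an SD of 2.36 in 4-day controls. Of 18 genes of cholesterol synthesis and uptake 16 had a difference above 0 (median 0.37) and 0 were called. Insig1, which holds back the sterol-sensing machinery, had the largest (1.63, 95% interval 0.62 to 2.63, adjusted p = 0.163).

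**Figure D3:**
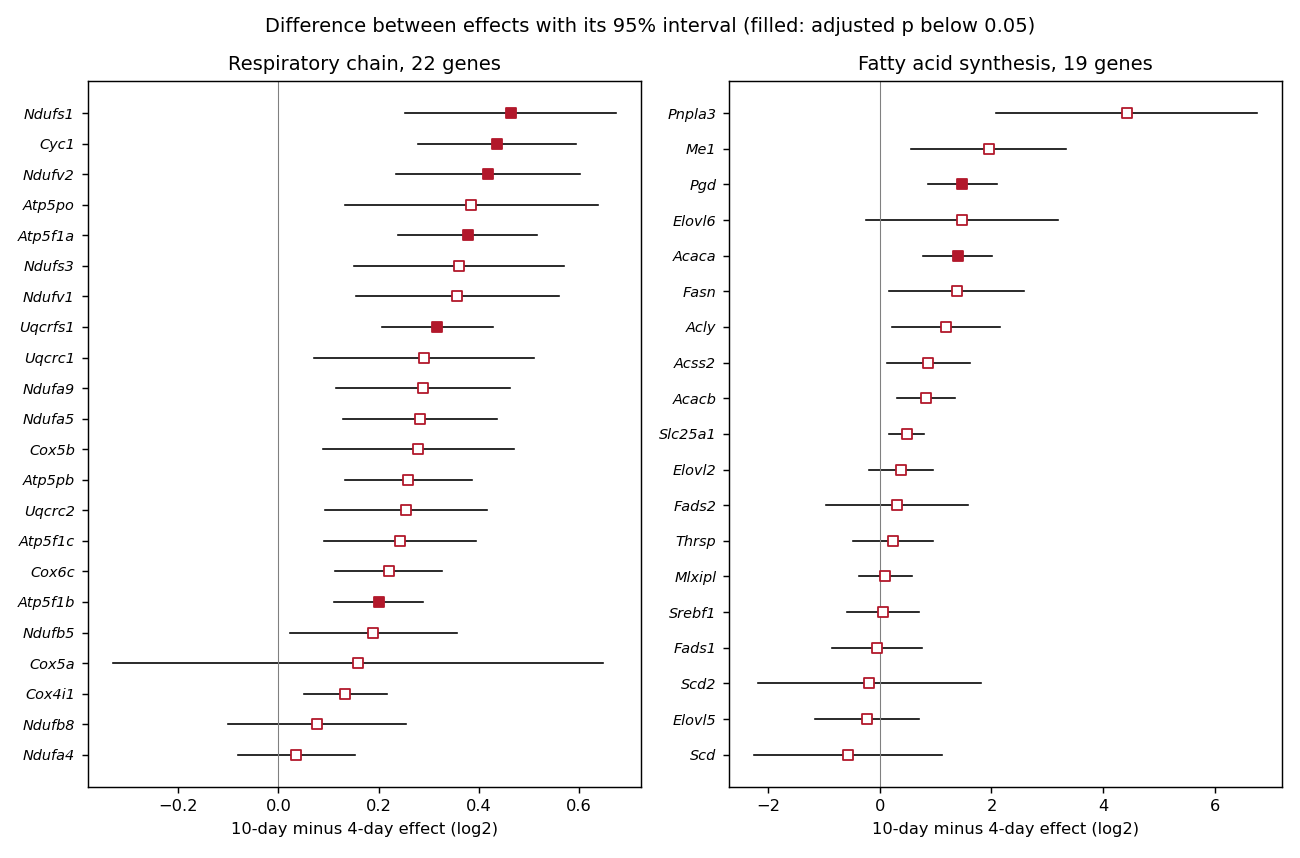
Difference between effects (10-day minus 4-day, log2) with its 95% interval for the 22 respiratory chain genes (left) and the 19 fatty acid synthesis genes (right). Filled squares mark adjusted p below 0.05, 6 and 2 genes. All 22 respiratory chain differences lie above 0, and those of fatty acid synthesis reach from -0.56 for Scd to 4.42 for Pnpla3.

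Lpin1, a phosphatidate phosphatase that also acts as a nuclear coregulator of fat oxidation, changed in opposite directions. It measured 10.32, 10.07, 10.84, 11.34 and 13.16 in 10-day restricted livers and 9.12, 8.85, 9.35, 8.51 and 8.28 in 10-day control livers. In 4-day restricted livers it measured 8.63, 9.29, 8.33 and 9.59, and in 4-day control livers 10.03, 11.13, 10.25 and 11.11. It rose by 2.32 (SE 0.55, adjusted p = 0.0243) after 10 days and fell by 1.68 (SE 0.37, adjusted p = 0.0467) after 4 days, a difference of 4.00 (SE 0.72, adjusted p = 0.0203, 16 of 18 fits). Neither pair of groups overlapped. A second probe set gave a called difference of 4.09. From the 4-day to the 10-day set the restricted mean shifted by 2.19 and the control mean by -1.81.

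The other 2 genes with opposite signs were Pnrc1, a nuclear receptor coactivator, and Hagh, a glyoxalase that yields D-lactate. Pnrc1 fell by 0.49 (SE 0.09) after 10 days and rose by 0.81 (SE 0.12) after 4 days, a difference of -1.30 (SE 0.16, adjusted p = 0.00228). Its control means were 11.57 ± 0.11 in the 10-day set and 9.74 ± 0.17 in the 4-day set, further apart than either effect. Hagh fell by 0.17 (SE 0.05, adjusted p = 0.0480) after 10 days with overlapping groups and rose by 0.46 (SE 0.03) after 4 days, a difference of -0.63 (SE 0.06, adjusted p = 0.000202). Its control means were 11.88 ± 0.10 and 11.41 ± 0.03.

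Genes of fatty acid oxidation rose in like number under both regimens, 14 of 19 after 10 days and 14 of 19 after 4 days, with medians of 0.49 and 0.48. Of their differences 15 were below 0 and 4 above, while 41.0% of all genes had one above 0. The median difference was -0.15, and it was -0.05 with scan day 1 alone and -0.32 with scan day 2 alone. Only Decr1, a reductase of mitochondrial beta-oxidation, had a called difference. It measured 13.80, 13.62, 13.65, 13.45 and 13.24 in 10-day restricted livers and 12.47, 12.48, 12.78, 12.92 and 12.84 in 10-day control livers. In 4-day restricted livers it measured 13.33, 13.25, 13.44 and 13.30, and in 4-day control livers 11.65, 11.46, 11.37 and 11.46. The rise was 0.86 (SE 0.13) after 10 days and 1.84 (SE 0.07) after 4 days, a difference of -0.99 (SE 0.16, adjusted p = 0.011). Restricted means lay 0.22 apart and control means 1.21.

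Cyp4a1, a fatty acid omega-hydroxylase and the only 1 of 13 PPARalpha targets with a called difference, showed the same layout. It averaged 13.93 ± 0.18 in 10-day restricted and 13.49 ± 0.24 in 10-day control livers (SD, n = 5 each), and 13.35 ± 0.09 in 4-day restricted and 11.93 ± 0.20 in 4-day control livers (SD, n = 4 each). The 10-day effect was 0.44 (SE 0.13, adjusted p = 0.0585), the 4-day rise 1.42 (SE 0.10) and the difference -0.99 (SE 0.17, adjusted p = 0.017). Over the PPARalpha targets the median was 0.39 after 10 days (2 rose and 1 fell) and 0.81 after 4 days (5 rose and 1 fell). Of their differences 11 were below 0 and 2 above (median -0.28). Ketone body genes (4 measured) had 0 called differences and a median of -0.35.

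By count, the respiratory chain had the most called members of any list: 6 of 22 above 0 and 0 below. Of all genes, 0.556% were called above 0 and 0.408% below. Some smaller lists had a higher share, such as the clock activators (0 above and 2 below of 5) and the steroid-converting enzymes (2 above and 1 below of 10). All 22 differences were above 0, from 0.04 for Ndufa4 to 0.46 for Ndufs1, with a median of 0.28. Of all genes, 4792 of which were near background in all groups, 41.0% had a difference above 0. Other lists leaned the same way: 23 of 24 cytosolic ribosomal proteins, 14 of 15 citric acid cycle genes and 10 of 11 glycolysis genes had a difference above 0. After 10 days 18 of the 22 rose and 0 fell (median 0.28), and after 4 days 0 were called (median 0.01). The median difference was 0.18 with scan day 1 alone and 0.36 with scan day 2 alone, and 0.23 to 0.32 with 1 array left out. The changes were small, and 10-day and 4-day levels of these genes varied little between arrays of a group.

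Cyc1, cytochrome c1 of complex III, measured 12.48, 12.32, 12.51, 12.47 and 12.63 in 10-day restricted livers and 12.12, 12.07, 12.06, 12.21 and 12.07 in 10-day control livers. It measured 11.60, 11.58, 11.67 and 11.66 in 4-day restricted livers and 11.62, 11.65, 11.80 and 11.69 in 4-day control livers. The 10-day groups did not overlap and the 4-day groups did. The difference was 0.44 (SE 0.07, adjusted p = 0.0157), with effects of 0.38 (SE 0.05) and -0.06 (SE 0.04).

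The catalytic ATP synthase subunits Atp5f1a and Atp5f1b had differences of 0.38 (SE 0.07, adjusted p = 0.017) and 0.20 (SE 0.04, adjusted p = 0.0412, 6 of 18 fits). The iron-sulfur proteins Ndufs1 and Ndufv2 of complex I had 0.46 (SE 0.10, 5 of 18 fits) and 0.42 (SE 0.09, 4 of 18 fits). Control means of Atp5f1a were 13.32 ± 0.04 in the 10-day set and 13.01 ± 0.06 in the 4-day set. In the same order they were 11.44 ± 0.07 and 11.21 ± 0.13 for Ndufs1, and 12.29 ± 0.07 and 11.97 ± 0.06 for Ndufv2. Uqcrfs1, the Rieske protein of complex III, had 0.32 (SE 0.05, adjusted p = 0.0124). Atp5f1b and Uqcrfs1 were named after their values were seen. Levels of this list were higher in the 10-day set in both groups, with median shifts of 0.63 in restricted and 0.34 in control rats.

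In the citric acid cycle 14 of 15 differences were above 0 (median 0.22) and 0 were called. Mdh2, the mitochondrial malate dehydrogenase, also belongs to that cycle but was counted among the 11 genes of glucose synthesis, and it had a called difference of 0.40 (SE 0.07, adjusted p = 0.0196, 17 of 18 fits). It averaged 12.12 ± 0.06 in 10-day restricted and 11.68 ± 0.09 in 10-day control livers (SD, n = 5 each), and 11.39 ± 0.07 in 4-day restricted and 11.34 ± 0.08 in 4-day control livers (SD, n = 4 each). Of 24 cytosolic ribosomal proteins 20 rose after 10 days and 5 after 4 days. Of their differences 23 were above 0 and 0 were called, with a median of 0.10.

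Pdhb, a subunit of pyruvate dehydrogenase, and its inhibitory kinase Pdk2 both fell after 4 days, with effects of -1.19 (SE 0.16) and -0.32 (SE 0.06). Their 10-day effects were -0.27 and 0.24, neither past the threshold, and the differences were 0.92 (SE 0.19, adjusted p = 0.0445, 5 of 18 fits) and 0.56 (SE 0.12, adjusted p = 0.043, 7 of 18 fits). Control means of Pdhb were 12.18 ± 0.21 in the 10-day set and 12.44 ± 0.27 in the 4-day set, and those of Pdk2 12.33 ± 0.18 and 12.06 ± 0.12. In glycolysis Pfkfb1, the bifunctional enzyme that sets fructose 2,6-bisphosphate, had the only called difference (1.36, SE 0.29, adjusted p = 0.0446, 3 of 18 fits). It rose by 0.96 (SE 0.13) after 10 days. Control means of Pfkfb1 were 9.42 ± 0.14 in the 10-day set and 9.66 ± 0.36 in the 4-day set.

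Csad, which makes the taurine precursor hypotaurine, fell after 4 days to 5.95 ± 0.48, against 9.25 ± 0.41 in 4-day controls (SD, n = 4 each), an effect of -3.30 (SE 0.29). After 10 days it averaged 7.91 ± 0.64 in restricted and 8.87 ± 0.30 in control livers (SD, n = 5 each), an effect of -0.96 (adjusted p = 0.0796). The difference was 2.35 (SE 0.43, adjusted p = 0.0221, 15 of 18 fits). Slc6a6, the taurine transporter, fell under both (-4.42, SE 0.49, and -3.50, SE 0.33), and its difference of -0.93 had a 95% interval of -2.30 to 0.44. Haao, an enzyme of tryptophan breakdown, and Mthfd1, a folate enzyme, had small called differences of 0.44 (SE 0.09, 5 of 18 fits) and 0.64 (SE 0.11). Slc27a5, the bile acid CoA ligase, had one of 0.35 (SE 0.07, 3 of 18 fits). Their control means in the 10-day and the 4-day set were 12.10 ± 0.12 and 12.08 ± 0.10 for Haao, 11.12 ± 0.10 and 10.84 ± 0.10 for Mthfd1, and 14.03 ± 0.06 and 13.93 ± 0.13 for Slc27a5.

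Macrophage and Kupffer cell markers fell under both regimens, 11 of 13 after 10 days (median -1.10) and 6 of 13 after 4 days (median -0.61), and 1 had a called difference. Their summed level ranged from 12.62 to 13.18 in 10-day restricted, 13.76 to 14.20 in 10-day control, 12.28 to 12.71 in 4-day restricted and 13.07 to 13.30 in 4-day control arrays. In such bulk samples fewer cells of a type and less RNA per cell cannot be told apart. Adgre1, a surface receptor of macrophages, measured 5.30, 5.08, 5.17, 5.67 and 5.12 in 10-day restricted livers and 6.92, 7.10, 6.76, 7.21 and 6.69 in 10-day control livers. It measured 5.46, 5.83, 5.50 and 5.76 in 4-day restricted livers and 5.60, 4.87, 5.86 and 5.99 in 4-day control livers. Only the 10-day controls were apart, and the difference was -1.72 (SE 0.28, adjusted p = 0.011).

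In the list of coagulation and complement genes 0 of 20 differences were called (median -0.15). Serping1, an inhibitor of the first complement proteases and the only 1 of 17 acute phase genes with a called difference, had -0.27 (SE 0.05, adjusted p = 0.0229, 13 of 18 fits), with control means of 13.73 ± 0.05 and 13.41 ± 0.06 in the 10-day and the 4-day set. The part of cell composition in the differences of Adgre1 and Serping1 was not tested. Interferon-stimulated and antigen processing genes fell in both, 17 of 19 after 10 days and 5 of 19 after 4 days, and had 0 called differences (median -0.53). Rsad2, an antiviral enzyme, had the largest of that list (-1.44, 95% interval -2.80 to -0.07, adjusted p = 0.548).

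**Figure D4:**
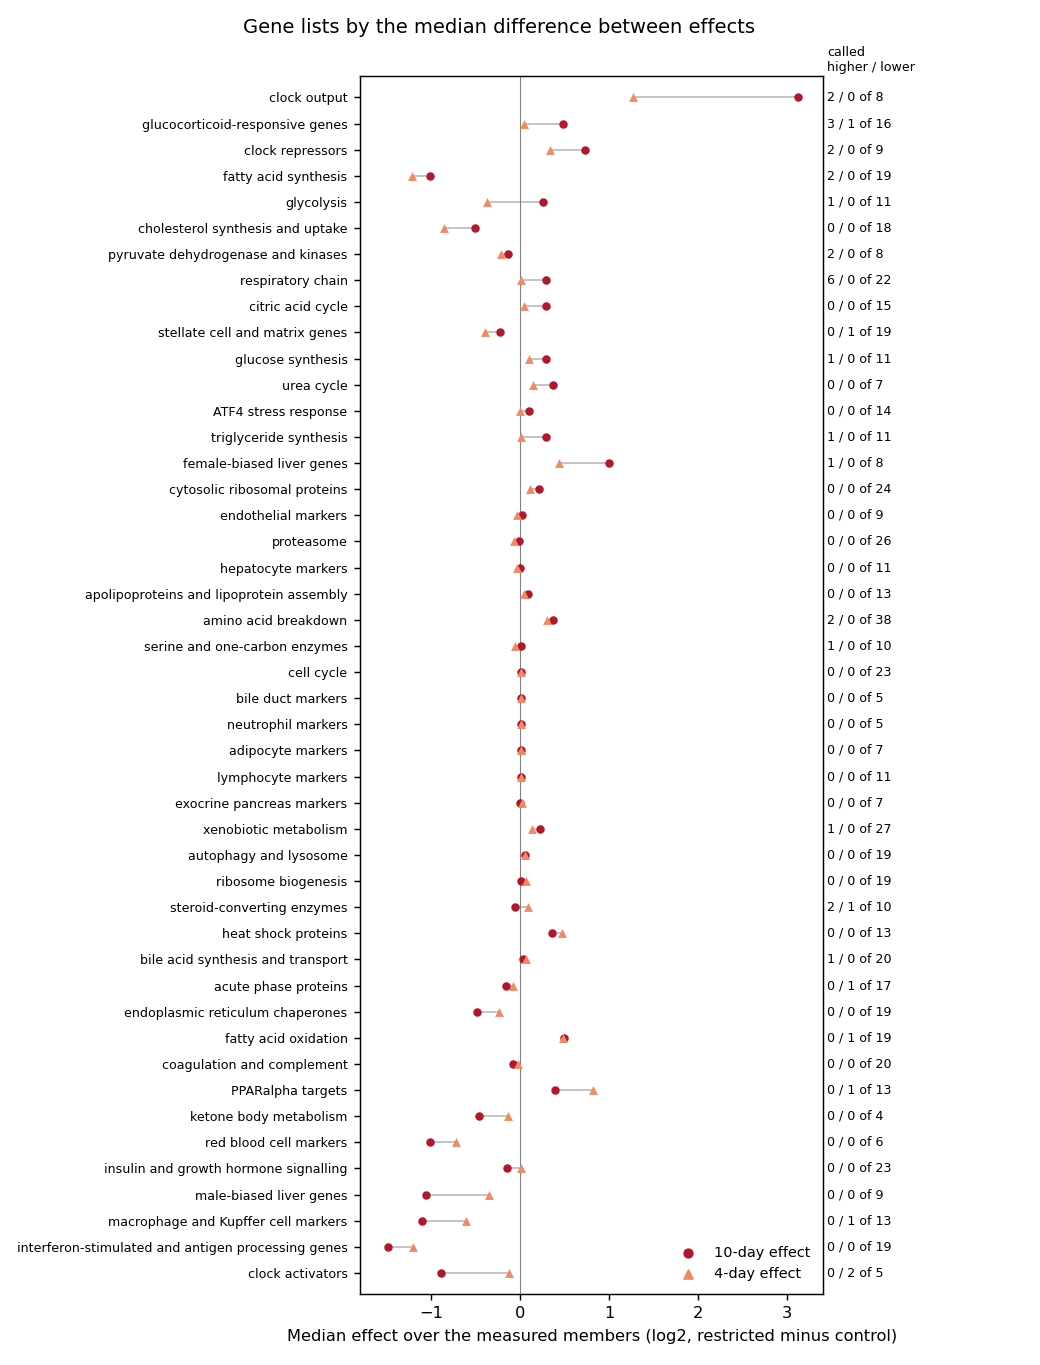
Median 10-day effect (circles) and median 4-day effect (triangles) over the measured members of each gene list, in log2 of restricted minus control rats. Lists run from the highest to the lowest median difference, and the right margin gives the number of members with a called difference above and below 0. The clock output list has the widest gap (3.12 and 1.27). The respiratory chain has the most called members by count (6 of 22), though some smaller lists have a higher share.

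Several of the largest differences lay outside the lists. Zfp354a, a zinc finger protein, measured 9.19, 10.27, 10.89, 9.90 and 10.15 in 10-day restricted livers and 5.99, 5.72, 5.82, 5.87 and 6.01 in 10-day control livers. It measured 7.62, 8.36, 7.50 and 10.57 in 4-day restricted livers and 8.55, 10.96, 10.48 and 10.52 in 4-day control livers. The 10-day controls were again the lowest group, and the 4-day groups overlapped. The difference was 5.81 (SE 0.81, adjusted p = 0.00516), with effects of 4.20 (SE 0.26) after 10 days and -1.61 (SE 0.81, adjusted p = 0.456) after 4 days.

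Stac3, known as an adaptor of the muscle calcium channel, measured 8.86, 8.97, 4.50, 6.49 and 6.43 in 10-day restricted livers and 12.43, 12.31, 12.35, 12.33 and 12.70 in 10-day control livers. It measured 11.48, 11.83, 11.32 and 11.22 in 4-day restricted livers and 12.22, 11.46, 11.88 and 10.92 in 4-day control livers. Here the 10-day restricted rats were the group apart, and they varied widely. The difference was -5.22 (SE 0.96, adjusted p = 0.0214, 16 of 18 fits).

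Lox, the lysyl oxidase that crosslinks collagen, fell after 10 days, with an effect of -4.49 (SE 0.26), and had a 4-day effect of -0.74 (SE 0.42) and a difference of -3.75 (SE 0.49, adjusted p = 0.004). It was the only 1 of 19 stellate cell and matrix genes with a called difference, and the median of that list was 0.22. Its groups averaged 4.05 ± 0.61 in 10-day restricted, 8.54 ± 0.14 in 10-day control, 5.96 ± 0.28 in 4-day restricted and 6.70 ± 0.87 in 4-day control livers. Arrdc3, an arrestin-like protein of adrenergic receptor turnover, had a difference of -2.85 (SE 0.41, adjusted p = 0.00535), with control means of 12.18 ± 0.30 and 10.65 ± 0.34 in the 10-day and the 4-day set. Slc1a4, a transporter of neutral amino acids, had one of -2.56 (SE 0.22, adjusted p = 0.000149) with 5.56 ± 0.26 in 10-day controls and the other 3 groups near background.

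Of the remaining large positive differences, Rasgef1b (2.68, SE 0.44), Tcim (2.50, SE 0.36), Enc1 (2.46, SE 0.28) and Pptc7 (2.42, SE 0.40) stayed called in all 18 fits. Tsku had 3.79 (SE 0.75, 8 of 18 fits) and Ablim3 2.65 (SE 0.51, 8 of 18 fits). Control means in the 10-day set lay below those in the 4-day set in all 6: Rasgef1b 7.81 and 9.17, Tcim 7.11 and 8.43, Enc1 3.75 and 6.17, Pptc7 7.55 and 8.59, Tsku 8.82 and 11.48, and Ablim3 4.27 and 5.10. The other 3 probe sets of Enc1, with means of at most 3.24, had differences between -0.02 and 0.02.

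Of the remaining large negative ones, Sult1c2 had -2.88 (SE 0.57, 8 of 18 fits), Osgin1 -2.49 (SE 0.54, 2 of 18 fits), Cers6 -1.59 (SE 0.30, 13 of 18 fits), Sez6 -1.55 (SE 0.28, 17 of 18 fits) and Pla2g4a -1.53 (SE 0.28, 14 of 18 fits). Their control means in the 10-day set lay above those in the 4-day set: Sult1c2 9.08 and 7.79, Osgin1 11.84 and 9.33, Cers6 9.39 and 8.27, Sez6 9.37 and 8.30, and Pla2g4a 6.23 and 3.83. Sult1c2, a sulfotransferase, and Sez6 rose after 4 days (2.08 and 1.12), with 10-day effects of -0.79 and -0.43 that missed the threshold. Ceramide synthase Cers6 and phospholipase Pla2g4a fell after 10 days (-1.19 and -2.05).

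Since controls of the sets were processed apart, the levels behind the 137 differences were laid out side by side. Control levels of the sets were further apart than restricted levels in 64 of the 137 genes, and restricted levels in 73. In 79 genes the shifts of control and restricted rats had opposite signs. Controls lay more than 1 apart in 41 of the 137, and at most 0.5 apart in 74. Over all genes, 4792 of which were near background in all groups, controls lay more than 1 apart in 6.56%. The control shift is part of the difference. A higher share among genes called for the difference thus follows in part from the selection and is not a result. In 9 genes at least 1 group was near background: Cyp17a1, Akr1b7, Neu2, Kdsr, Rfx1, Il1b, Bmal1, Npas2 and Slc1a4. Over all genes the median shift between sets was 0.11 in restricted and 0.13 in control rats, and the medians of the difference, the 10-day effect and the 4-day effect were -0.01, 0.00 and 0.01.

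**Figure D5:**
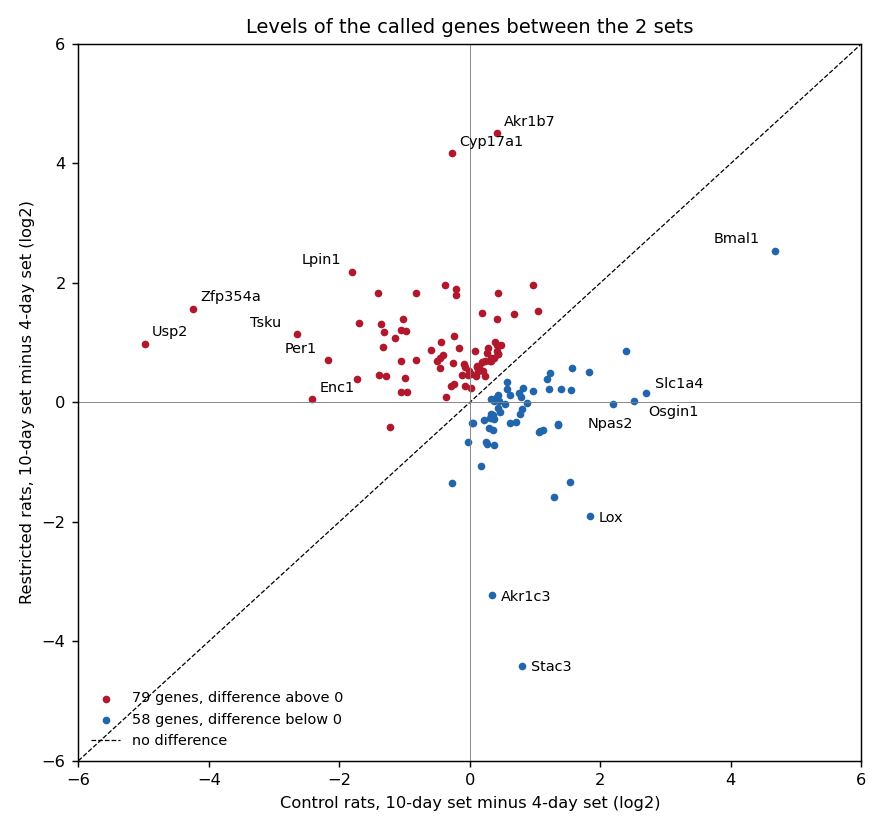
For the 137 genes with a called difference, the restricted level in the 10-day set minus that in the 4-day set (vertical axis) against the same for controls (horizontal axis), in log2 with no test, since the sets were pre-processed separately. Usp2, Zfp354a, Enc1 and Bmal1 lie far out on the control axis, and Cyp17a1, Akr1b7, Akr1c3 and Stac3 on the restricted axis.

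Of the 137 genes 32 had several probe sets, all others had the same sign in 25, and at least 1 other was called in 11. The 7 genes with another sign at some probe set were Chd4, Dsp, Enc1, Il1rap, Pnrc1, Rfx1 and Tent4a.

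The genes that follow were chosen as the largest changes of the same sign under both regimens among genes with no called difference, so the lack of a call is not a result. Inhba, the activin subunit, fell under both, with effects of -5.69 (SE 0.58) after 10 days and -5.01 (SE 0.45) after 4 days, with a difference of -0.68 (95% interval -2.36 to 1.00). Cux2 rose by 4.01 (SE 0.34) and 4.08 (SE 0.24), with a difference of -0.07 (95% interval -1.03 to 0.90), and Prlr by 4.55 (SE 0.84) and 3.86 (SE 0.83), with 0.69 (95% interval -1.97 to 3.34). Falls were shared by Slc34a2, a phosphate transporter (difference -0.80, 95% interval -2.37 to 0.77), Kcnj15, a potassium channel (0.60, -0.51 to 1.71), and Tubb2a, a tubulin (0.23, -0.60 to 1.05). Control means in the 10-day and the 4-day set were 9.19 ± 0.27 and 8.77 ± 0.38 for Inhba, 4.75 ± 0.71 and 4.48 ± 0.40 for Cux2 and 12.72 ± 0.21 and 11.74 ± 0.42 for Tubb2a. The intervals are wide, and of these only those of Cux2 and Tubb2a stay within about 1 log2 unit of 0.

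In all, 21 of the 46 lists held a called difference and 35 of the 137 genes were in a list. The 25 lists with none had median differences from -0.53 to 0.37. They include the proteasome (26 genes, median 0.05), autophagy and lysosome (19, -0.01), endoplasmic reticulum chaperones (19, -0.13), heat shock proteins (13, -0.06), the urea cycle (7, 0.18), ATF4 stress response (14, 0.16) and insulin and growth hormone signalling (23, -0.39). Chaperones of the endoplasmic reticulum fell in 12 of 19 genes after 10 days and 5 after 4 days, and heat shock proteins rose in 8 and 7 of 13. Among urea cycle enzymes Asl rose by 1.98 (SE 0.22) and 1.52 (SE 0.08), with a difference of 0.45 (95% interval -0.11 to 1.02). Red blood cell markers fell in 3 of 6 after 10 days and 0 after 4 days, with a median difference of -0.39 and 0 called. The globin Hbb had a difference of -1.39 (95% interval -3.08 to 0.31), and its summed list level ranged from 10.18 to 11.93 in 10-day restricted, 12.62 to 13.90 in 10-day control, 10.49 to 12.92 in 4-day restricted and 11.99 to 14.34 in 4-day control arrays. Markers of lymphocytes, neutrophils, endothelium, bile duct, exocrine pancreas and adipocytes had 0 called differences, and 7 of 11 lymphocyte and 4 of 5 neutrophil markers were near background in all groups.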

How the data were processed

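Rat liver RNA was measured on expression arrays, 1 rat per array. The deposited values are log2 expression per probe set, made by the authors for each tissue and set separately. The submitters' processing notes name R 2.4.1, affy 1.12.2, RMA and GCRMA 2.6.0, without saying which made the deposited log2 values. The 57 control probe sets were left out and 31042 were tested. Of these, 20826 named 1 gene, and a gene was its probe set with the highest mean over the 18 liver arrays. limma 3.58.1 in R 4.3.3 fitted the difference between effects over all 18 arrays in 1 model of the 4 groups, and each regimen's effect within its own set. P-values were Benjamini-Hochberg adjusted over all probe sets, with a threshold of 0.05. They rest on the spread between rats within each group. Spread between repeats of a regimen is not part of them, since no liver regimen was repeated in a further set.

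Members and gene lists (46 lists, 660 of 748 entries measured) were chosen with earlier results of these data known. Genes named were the 15 largest called differences in each direction, up to 4 called members of each list (up to 2 of the largest where none was called), up to 8 genes called with opposite signs and up to 8 with the largest effects of the same sign and no called difference. Others are said to be named after their values were seen, except those given only as motif, background or probe set counts. Alternatives were joint quantile normalization, median centring, a mean of at least 5, a trended and robust prior, array weights, scan day, a replicate block, leaving out each array and the mean of a gene's probe sets. The 8 adipose arrays were not used.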

Additional observations from a re-analysis of the deposited data

Results flagged for a closer look

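The effects of the regimens differed by the test of the difference itself in 137 genes. Of these, 3 changed in both with opposite signs: Hagh (difference -0.63), Pnrc1 (-1.30) and Lpin1 (4.00).

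Among 440 groups of 4 or 5 arrays over 110 named genes, 32 held an array far from the others. The limit used is one that chance passes in about 1 in 20 groups, and groups that share arrays are not independent. The most, 5 each, came from 4-day control replicates 1 and 2. In 4-day control replicate 1 these were Bmal1 (3.09), Cish (9.83), Hsph1 (8.07), Pdhb (12.03) and Tat (11.48). In 4-day control replicate 2 they were Akr1c3 (6.94), Alas2 (8.96), Hbb (14.27), Per1 (6.79) and S100a9 (3.16), and 4-day control replicate 4 had Psmd1 (9.47). In 4-day restricted replicate 4 they were Cish (3.22), Cyp2c12 (11.43), Fabp5 (4.31) and Slc1a4 (3.10), in replicate 3 Nupr1 (8.19) and in replicate 2 Tcim (7.33). In 10-day restricted replicate 3 they were Alas2 (4.41), Hbb (11.90) and Npas2 (2.31, near background), in replicate 4 Bmal1 (4.44) and Mdh2 (12.23), and in replicate 5 Mthfd1 (11.83), Pgd (8.91) and Sult1c2 (6.88). In 10-day control replicate 3 they were Asl (12.03), Psmc6 (11.49), Tsc22d3 (9.51) and Ulk1 (9.16), in replicate 1 Mthfd1 (11.29), in replicate 4 Usp2 (3.53) and in replicate 5 S100a8 (3.61).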

How the results depend on the processing

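Of the 137 called differences, 127 could be tested with a mean of at least 5 and 137 under the other alternatives, and 0 changed sign. These genes were called on the same arrays, so a kept sign is not separate evidence. Counted over probe sets, 203 differences were called, against 401 with a mean of at least 5, 27 with only scan day 1 of the 10-day arrays, and 34 with the replicate block. Leaving out 1 array gave 104 to 313. The count moved by over 1.5 times without 10-day restricted replicates 1 (313) and 3 (125), 10-day control replicates 2 (135) and 4 (134), 4-day restricted replicates 1 (110) and 3 (122), and 4-day control replicates 2 (122) and 4 (104). The 3471 probe sets called after 10 days became 567 and 1240 with scan day 1 or 2 alone, which hold fewer arrays. The 1732 called after 4 days became 987 with the replicate block, and 1091 to 1744 with 1 array left out, the lowest without restricted replicate 1 and 1146 without control replicate 4. The cause of the other shifts was not tested. Of the 137 genes, 114 stayed called after joint quantile normalization, 106 after median centring, 105 with scan day as a block and 20 with the replicate block. With only scan day 1 or 2 of the 10-day arrays, 10 and 67 stayed called. Deviations of same-numbered arrays from their group means had correlations of -0.09 to 0.17. Whether such arrays shared a batch was not tested. Scan records of the 4-day arrays were not used here.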
